A study of Rattus norvegicus with 4 samples.

Results

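Synaptic vesicle and exocytosis genes were examined in the ischaemic cortex of ovariectomised female rats. They comprised every gene whose symbol belongs to the synaptotagmin (Syt), synapsin (Syn), syntaxin (Stx), syntaxin-binding (Stxbp), Vamp, Snap, complexin (Cplx), Sv2, Rab, synaptogyrin (Syngr), Sypl, dynamin (Dnm), Rims or Unc13 families, together with Nsf, Napa, Syp and the rabphilin genes, on a probe set that carries that symbol alone. This gave 84 of the 4736 genes with such a probe set, on 122 of 8740 probe sets, and each gene was read from its probe set of highest mean over the 4 arrays. All rats, in both groups, had lost their ovaries and had the middle cerebral artery closed from inside the vessel for 2 h. One group had 17beta-estradiol replaced and the other had placebo, with 2 arrays in each. Every array held RNA pooled from 3 animals, so single animals were not measured. Dose, strain and age were not stated in the labels or design text, and these do not say in words how long after the occlusion the 4 samples were taken. Values are array intensities, given for estradiol pools 1 and 2 and then placebo pools 1 and 2. A log2 fold change is estradiol minus placebo on the log2(intensity + 16) scale, with the standard error (SE) of the limma fit. A pool is called at background where its value was no higher than the brightest control probe set for a foreign gene on that array.

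Neurotransmitter is released when a docked vesicle fuses with the presynaptic membrane. The vesicle protein synaptobrevin (Vamp) zips together with syntaxin and SNAP-25 of the plasma membrane into the SNARE complex, complexin and Unc13 proteins prepare the complex, and synaptotagmin triggers fusion when calcium enters. NSF and alpha-SNAP (Napa) then take the complex apart, dynamin pinches new vesicles off the membrane, and Rab GTPases direct vesicles at this and other steps. Many members of the same families, above all among the Rab proteins and syntaxins, act in membrane traffic of every cell and not at the synapse.

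Promoter sequences are shown for 4 members. Rab3d had the lowest unadjusted p of the genes tested here, Stx1a lay lower with estradiol in both of its probe sets, and Syn1 and Vamp1, a vesicle tether and a vesicle SNARE, hold a full cAMP response element. The 250 bases before the start of each gene are given 5′ to 3′ on the gene's strand, from RefSeq on GRCr8. Capitals mark GGTCA, the half-site of an estrogen response element, TGACG, the half-site of a cAMP response element, and the full element TGACGTCA, on either strand.
Rab3d (chr8:28725268-28725517, minus strand): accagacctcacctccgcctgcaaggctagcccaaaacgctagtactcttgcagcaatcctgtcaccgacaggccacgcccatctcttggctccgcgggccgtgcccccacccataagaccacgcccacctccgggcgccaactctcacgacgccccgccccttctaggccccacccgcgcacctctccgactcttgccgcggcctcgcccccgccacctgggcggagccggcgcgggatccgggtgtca
Stx1a (chr12:27306472-27306721, minus strand): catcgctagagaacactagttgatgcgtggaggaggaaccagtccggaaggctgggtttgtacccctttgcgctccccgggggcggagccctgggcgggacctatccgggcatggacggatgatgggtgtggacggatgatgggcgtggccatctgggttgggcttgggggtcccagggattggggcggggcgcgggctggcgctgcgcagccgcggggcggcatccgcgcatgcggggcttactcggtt
Syn1 (chrX:3725495-3725744, plus strand): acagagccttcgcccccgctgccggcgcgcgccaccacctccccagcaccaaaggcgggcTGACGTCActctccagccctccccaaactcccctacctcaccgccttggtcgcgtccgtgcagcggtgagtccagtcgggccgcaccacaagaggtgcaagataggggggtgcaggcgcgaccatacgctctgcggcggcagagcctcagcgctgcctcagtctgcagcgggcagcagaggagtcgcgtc
Vamp1 (chr4:159698644-159698893, plus strand): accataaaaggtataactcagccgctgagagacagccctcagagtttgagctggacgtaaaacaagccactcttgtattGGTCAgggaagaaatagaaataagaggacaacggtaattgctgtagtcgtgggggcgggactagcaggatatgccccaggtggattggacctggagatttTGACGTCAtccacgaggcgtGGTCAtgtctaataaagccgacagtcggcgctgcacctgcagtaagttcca

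No match stands in the Rab3d and Stx1a windows. A promoter of 300 bases, 250 before and 50 after the start, was found for 71 of the 84 members. The full estrogen response element GGTCANNNTGACC was in 0 of the 71 and in 0.0255% of all 27457 rat promoters of that length. Its half-site GGTCA was in 25 of the 71, or 35.2%, against 40.2% of all promoters. The full cAMP response element was in 3 members, or 4.23%, against 1.91% of all promoters. These were Napa, Syn1 and Vamp1, where it began 59, 190 and 71 bases before the start, respectively. Its half-site TGACG, which the full element contains, was in 26 of the 71, or 36.6%, against 22.0% of all promoters. Both strands were searched. These counts describe letters in a window, and binding was not measured.

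No member passed the test for a difference between estradiol and placebo. Of the 84 genes, 65 passed the intensity filter and were tested. In limma with Benjamini-Hochberg adjustment 0 of the 65 were called, against 0% of all 5244 probe sets tested, and the smallest adjusted p among them was 0.998. At an unadjusted p below 0.05 in limma there was 1 member, Rab3d, against 3.07% of all probe sets. It was higher with estradiol, as were 1.74% of all probe sets, and no tested member was lower at that p, against 1.33%. Rab3d passed the filter only through its estradiol pools, since both placebo pools were at background. Syt8, above background only in the placebo pools, fell below the filter. Fitted without a filter, Syt8 was lower with estradiol at an unadjusted p of 0.0161 in limma, against 0.0206 for Rab3d. The members' log2 fold changes ran from -0.77 to 0.95 with a median of 0.031, against a median of 0.011 for all probe sets. The fold change was smaller than its SE in 44 of the 65. It was past 0.5 in size for 5 members, or 7.69%, against 10.3% of all probe sets. With 2 pools in each group no two-sided exact permutation test of a single gene can give a p below 0.333. The p-values measure spread between pools and not between animals. In limma a gene's SE draws on its own pools and on other probe sets of like intensity.

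Cell type markers outside these families are given here because they also differed between the pools, and their part in the results that follow was not tested. In pooled tissue, fewer cells of a type and less RNA per cell cannot be told apart. The summed intensity of 10 neuron markers was 14542 and 15001 against 14617 and 18259, with all 10 lower in placebo 1 than in placebo 2 and none at background in every pool. Markers of striatum, 7 measured with Drd2 at background, summed to 2404 and 2082 against 1591 and 1535 in samples whose label is cortex. Of the 6 tested, 4 did not overlap and were higher with estradiol, as were 15.4% of all probe sets. Among these, Rgs9 was above background in estradiol 2 alone, at 24.3 and 146 against 16.2 and 21.0. Pdyn and Adora2a overlapped, with log2 fold changes below 0. The 5 blood cell markers summed to 1872 and 4249 against 6173 and 5319. All 5 were lower with estradiol without overlap, as were 14.3% of all probe sets. The 5 oligodendrocyte markers, at 16351 and 12394 against 20388 and 13094, were all brighter in pool 1 of both groups. The 9 measured genes of choroid plexus and meninges summed to 1983 and 6316 against 11422.5 and 1029, with Kcnj13 and Slc22a6 at background in every pool. Ttr alone read 165 and 4312 against 8034 and 74.3, so the sum mainly follows that gene. Of the 6 tested, all were brighter in placebo 1 than in placebo 2, and 5 were dimmer in estradiol 1 than in estradiol 2. Igfbp2 was the exception, at 260 and 185 against 357 and 186, and Col1a2 differed little between pools. The sum was 11042 and 10822 against 12123 and 11361 for 7 astrocyte markers and 484.5 and 677 against 645 and 492 for 6 microglia and macrophage markers, with Itgam and Csf1r at background. It was 552 and 509 against 738 and 665 for 6 vascular markers, with Vwf at background. All 5 tested of these had log2 fold changes below 0, where 51.6% of all probe sets lay above 0. Ocln and Slco1a4 were lower with estradiol without overlap, as were 14.3% of all probe sets, and Pecam1, Flt1 and Kdr overlapped.

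Of the SNARE proteins, the neuronal set gave values of both signs. Snap25, the plasma membrane SNARE of neurons, read 2664 and 2340.1 in the estradiol pools against 1958.5 and 3000.5 in the placebo pools. The placebo pools lay on both sides of the estradiol pools, and its log2 fold change was 0.042 ± 0.24 (SE). The other 3 Snap25 probe sets gave -0.071, 0.22 and 0.084. Stx1a, syntaxin 1A, its partner in the same membrane, read 1689.8 and 1183 in the estradiol pools against 1815 and 1775 in the placebo pools. Both estradiol pools were lower than both placebo pools, mainly through estradiol 2, and the log2 fold change of -0.34 ± 0.22 (SE) was -0.086 without that pool. The other Stx1a probe set, at 753 and 713 against 872 and 1084, gave -0.40 and did not overlap either. Vamp2, the main synaptobrevin of forebrain synapses, read 1872 and 2158.5 against 2195 and 2203. Its log2 fold change was -0.13 ± 0.19 (SE) with the estradiol pools just below the placebo pools, and its other probe set gave -0.37 without overlap. Vamp1, the related synaptobrevin, read 201 and 226 against 128 and 328. The placebo pools enclosed the estradiol pools, and the log2 fold change was 0.043 ± 0.38 (SE).

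**Figure D1:**
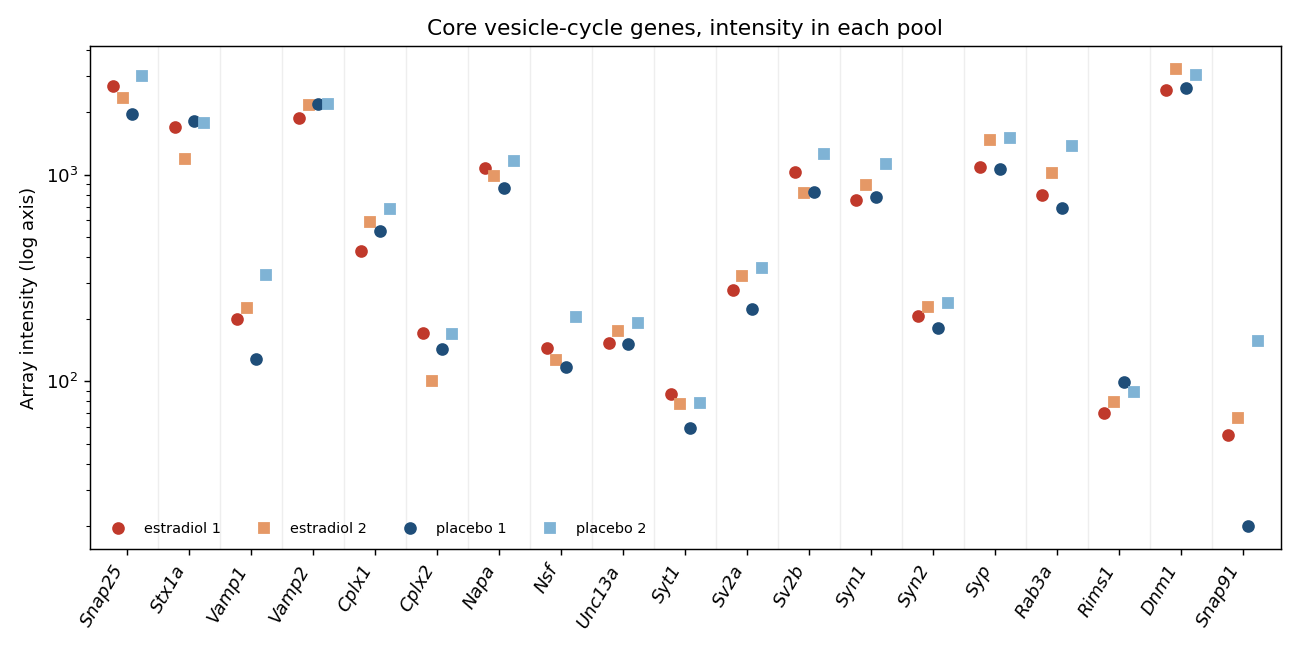
Array intensity (log axis) of the tested members of the core vesicle cycle list, with 1 point per pool, circles for pool 1 and squares for pool 2 of each treatment. The placebo pools (dark and light blue) are far apart for Vamp1 (128 and 328), Rab3a (686 and 1368) and Snap91 (19.9 and 156), with the estradiol pools (red and orange) between them.

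Among SNAREs of other membranes, Vamp5 had the highest log2 fold change, 0.65 ± 0.40 (SE). It read 99.2 and 58.5 in the estradiol pools against 26.6 and 65.8 in the placebo pools, so the groups overlapped. Placebo 1 was at background, and without it the value was 0.18. Stx6, a syntaxin of the trans-Golgi network, read 58.1 and 41.8 against 39.3 and 27.1, with placebo 2 at background and a log2 fold change of 0.42 ± 0.36 (SE). Stx12, a syntaxin of endosomes, read 253 and 287 against 176 and 241, with a log2 fold change of 0.36 ± 0.23 (SE), which was 0.15 once placebo 1 was left out. In both genes the estradiol pools were above the placebo pools. The nearest pools of the 2 treatments lay closer together than the 2 pools of either treatment. Stx5, of the Golgi, read 185 and 185 against 159.6 and 173 and gave 0.14 ± 0.21 (SE) without overlap, and its other tested probe set gave 0.14, also without overlap. Snap23, the SNAP-25 relative of non-neuronal cells, read 29.7 and 37.7 against 44.6 and 44.2, with both estradiol pools at background and at least 1.24-fold lower. The remaining tested SNAREs Stx4, Stx7, Stx8 and Vamp3 had log2 fold changes from -0.12 to 0.30 and overlapped. Of all 13 tested SNARE proteins, 9 lay above 0, or 69.2%, against 51.6% of all probe sets, and 6 of these 9 were syntaxins, of which 7 were tested. Stx3 and Snap29 were below the filter.

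The partners that assemble and disassemble the SNARE complex overlapped between treatments in all 7 tested members. Of all probe sets, 29.7% did not overlap. The log2 fold changes of the 7 members ran from -0.25 to 0.031. Cplx1, complexin 1, read 427.5 and 586.5 in the estradiol pools against 531 and 679.7 in the placebo pools, with a log2 fold change of -0.25 ± 0.24 (SE). In each treatment pool 2 was the brighter one. Cplx2, complexin 2, read 172 and 100.5 against 144 and 169, with a log2 fold change of -0.22 ± 0.28 (SE). Estradiol 2 alone was low there. Nsf, the ATPase, read 146 and 127 against 118 and 204.5, with a log2 fold change of -0.18 ± 0.29 (SE), and Napa, its adaptor, read 1071 and 979.7 against 861 and 1167, with 0.031 ± 0.22 (SE). In each the placebo pools enclosed the estradiol pools, while the other Napa probe set, at 452 and 437 against 379.6 and 291, gave 0.40 without overlap. The other Nsf probe set gave 0.11 with overlap. Unc13a, the priming factor, read 154 and 175 against 152 and 191, with a log2 fold change of -0.048 ± 0.23 (SE). Stxbp5, tomosyn, gave 0.0016 and Unc13b gave 0.028. Unc13c was below the filter and not tested, at 38.2 and 44.5 against 8.2 and 33.3, with placebo 1 far below the rest. Stxbp2, of non-neuronal secretion, was at background in every pool.

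Among the synaptotagmins, 3 of 9 tested members lay entirely lower with estradiol, where 14.3% of all probe sets did, and 1 entirely higher, where 15.4% did. Syt1, the calcium sensor of fast release, read 86.6 and 77.9 in the estradiol pools against 59.7 and 78.9 in the placebo pools. The groups overlapped, with placebo 1 alone low, and the log2 fold change was 0.21 ± 0.27 (SE). Syt4, a synaptotagmin known as an activity-regulated gene, read 185 and 166 against 116 and 161, with a log2 fold change of 0.32 ± 0.24 (SE), and 0.11 once placebo 1 was left out. Its second probe set, at 161 and 175 against 123 and 150.2, gave 0.27, also without overlap. Syt17 read 271 and 190.1 against 282 and 351, with a log2 fold change of -0.44 ± 0.25 (SE), and -0.20 once estradiol 2 was left out. Syt3 read 172 and 147 against 205 and 210.2, with -0.35 ± 0.22 (SE), and Syt5 read 498 and 464 against 554 and 553, with -0.20 ± 0.19 (SE). In both the placebo pools were close together, and the difference between treatments was larger than the gap between the estradiol pools. Syt6, Syt7, Syt10 and Syt11 overlapped. Syt8 was not tested because its mean fell below the filter, and read 19 and 18.0 against 53.5 and 49.4. Both of its estradiol pools were at background, at least 1.44-fold lower than with placebo. Syt2 and Syt9 were at background in every pool, and Syt12 was above it only in placebo 2.

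Proteins that sit on the vesicle overlapped between treatments in 6 of 8 tested members. The other 25% did not overlap, against 29.7% of all probe sets. Syp, synaptophysin, an abundant vesicle membrane protein, read 1089.6 and 1467 in the estradiol pools against 1068 and 1499.6 in the placebo pools. Each treatment had a dimmer pool 1 and a brighter pool 2 at nearly equal levels, and the log2 fold change was -0.0016 ± 0.25 (SE). Syn1, synapsin I, which tethers vesicles in the reserve pool, read 752 and 889.6 against 775 and 1125, with a log2 fold change of -0.19 ± 0.24 (SE). Placebo 2 alone stood high. Syn2 gave 0.058 ± 0.23 (SE) and Sv2a, a vesicle glycoprotein, 0.088 ± 0.26 (SE), both with overlap. The other Syn2 probe sets gave -0.20 and -0.13, also with overlap. Sv2b read 1027 and 815 against 827 and 1258, with a log2 fold change of -0.15 ± 0.25 (SE). A dimmer Sv2b probe set, at 131 and 117 against 151 and 371, gave -0.86 without overlap, with placebo 2 far above the rest. Sv2c, the isoform of the basal ganglia, read 85.9 and 80.6 against 48.3 and 95.9, with a log2 fold change of 0.23 ± 0.32 (SE). The synaptogyrins lay entirely lower with estradiol. Syngr1, of neuronal vesicles, read 167 and 175 against 193 and 217, with a log2 fold change of -0.24 ± 0.21 (SE), and a dimmer probe set, with both estradiol pools at background, gave -0.69 without overlap. Syngr2, of other tissues, read 138 and 119 against 165 and 150.1, with a log2 fold change of -0.26 ± 0.22 (SE). Syn3 was at background in every pool.

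Rab GTPases and their effectors held most of the members whose pools did not overlap. Of 24 tested genes, 10 lay entirely higher with estradiol, where 15.4% of all probe sets did, and 4 entirely lower, where 14.3% did. Rab3d, a Rab of secretory granules, read 56.2 and 60.4 in the estradiol pools against 25.5 and 19.7 in the placebo pools. Both placebo pools were at background, and the estradiol pools were at least 1.73-fold higher. The fitted log2 fold change was 0.95 ± 0.35 (SE), with an unadjusted p of 0.0283 and an adjusted p of 0.998 in limma. It ran from 0.84 to 1.06 with 1 pool left out and was 1.34 with 1 and 0.50 with 64 added before the log. Rab14, of endosomes and the Golgi, read 69.7 and 76.2 against 45.4 and 47.0, with a log2 fold change of 0.52 ± 0.28 (SE). Rab5a, of early endosomes, read 125 and 127 against 98.8 and 81.3, with 0.43 ± 0.24 (SE), whereas its other probe set gave -0.0081 with overlap. Rab11b, of recycling endosomes, read 984 and 921.5 against 798 and 813, with 0.24 ± 0.19 (SE), and its other probe sets gave -0.25 and -0.14. In these genes the pools of one treatment lay closer together than the treatments. Rab34 read 261 and 254 against 215 and 219, with a log2 fold change of 0.23 ± 0.20 (SE). The other Rab genes entirely higher with estradiol were Rab33b with 0.32, Rab11a with 0.22, Rab3b with 0.20, Rab1a with 0.17 and Rab8a with 0.10. A further Rab11a probe set gave -0.24 and lay entirely lower with estradiol, and another gave 0.078 with overlap. The other Rab3b probe set gave 0.34 with overlap. Thus no other tested probe set of Rab5a, Rab11a, Rab11b or Rab3b lay entirely higher with estradiol.

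Rab3a, the main Rab of synaptic vesicles, was not among the genes entirely higher with estradiol. It read 793 and 1019 in the estradiol pools against 686 and 1368 in the placebo pools, with a log2 fold change of -0.11 ± 0.33 (SE), and the placebo pools enclosed the estradiol pools. Rims1, the active zone scaffold that binds Rab3, read 70.7 and 79.5 against 99.5 and 89.3, with -0.28 ± 0.25 (SE), entirely lower with estradiol. Rab13, known from epithelial junctions, read 83.0 and 83.4 against 118 and 99.6, with -0.33 ± 0.24 (SE). Rab26 with -0.18 and Rab7a, of late endosomes, with -0.13 were likewise entirely lower. Rph3al, a Rab3 effector of granules, had the lowest value of the group, -0.61 ± 0.50 (SE), from 34.9 and 120.0 against 76.1 and 160.0. Estradiol 1 was the lowest pool, and without it the value was 0.10, and its other probe set gave 0.40 without overlap. Rph3a, rabphilin, was below the filter at 33.6 and 8.5 against 47.1 and 22.7. Rab2a, Rab3c, Rab3ip, Rab4a, Rab8b, Rab27a, Rab29 and Rab38 were also below the filter.

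Of the genes of vesicle retrieval, Dnm1, the neuronal dynamin, read 2566 and 3242 in the estradiol pools against 2629.7 and 3026 in the placebo pools, with a log2 fold change of 0.032 ± 0.20 (SE). Dnm2, the dynamin of all tissues, read 27.0 and 144 against 115 and 136. Its log2 fold change of -0.77 ± 0.54 (SE) came from estradiol 1, which was at background and without which it was 0.18. Dnm1l, which divides mitochondria, gave 0.12 ± 0.25 (SE), and its 3 other tested probe sets gave -0.037, 0.33 and 0.019. Snap91, which encodes the clathrin assembly protein AP180 and joined the list by its name, read 55.2 and 66.2 against 19.9 and 156, with placebo 1 at background. Its log2 fold change of -0.040 ± 0.64 (SE) was -1.17 without placebo 1 and 1.09 without placebo 2. Dnm3 was at background in every pool.

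**Figure D2:**
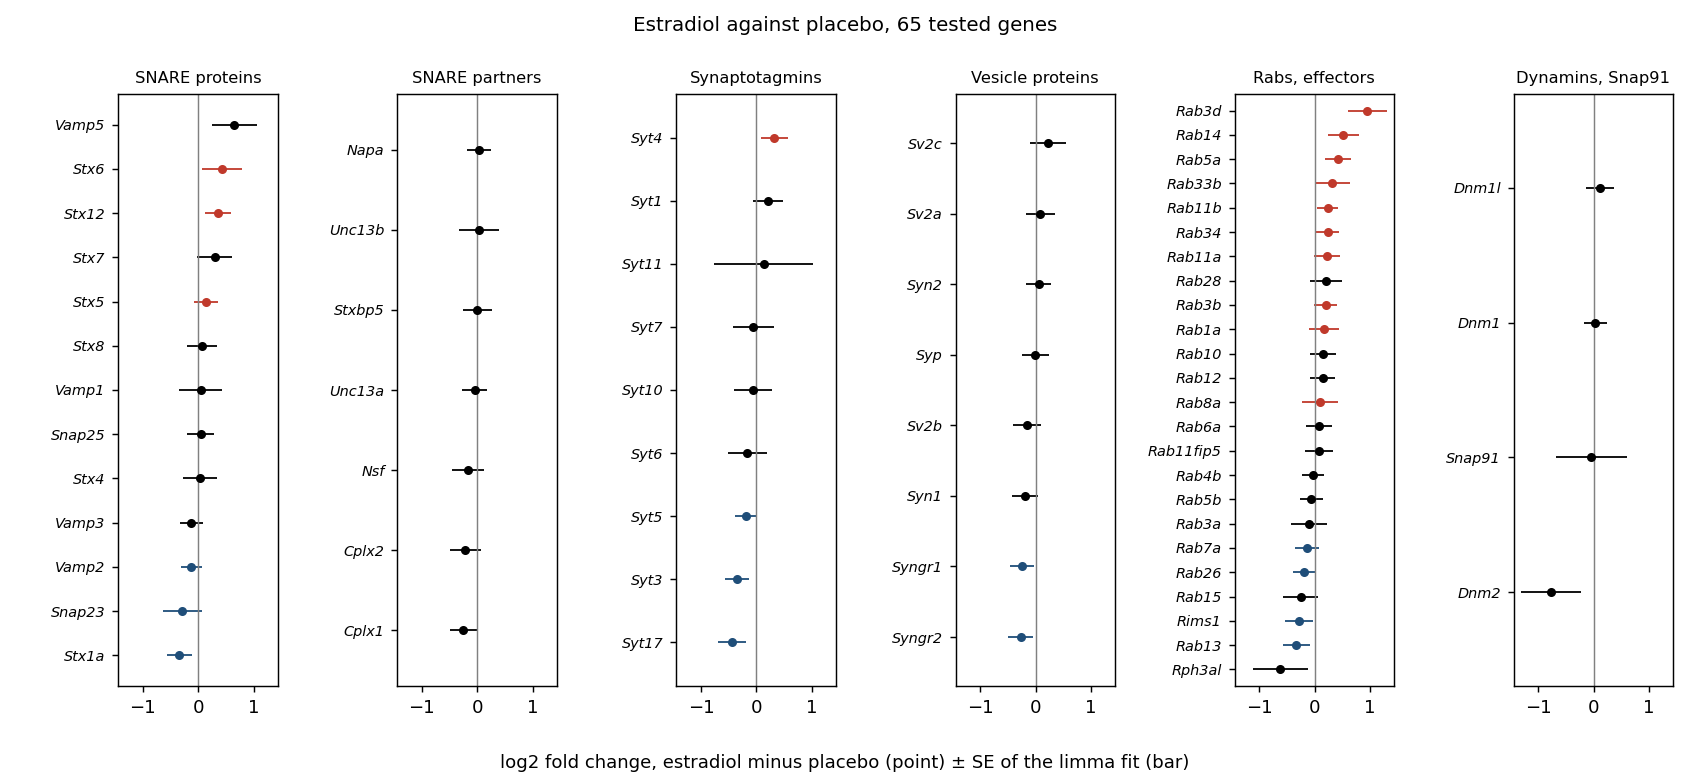
Log2 fold change, estradiol minus placebo, of the 65 tested members by role (points), with the SE of the limma fit (bars). Red marks genes whose estradiol pools both lay above both placebo pools (14), blue those with both below (12) and black those that overlapped, and the bar reaches 0 in 44 of the 65.

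Across all roles, 35 of the 65 tested members lay above 0 and 30 below, 53.8% above against 51.6% of all probe sets. Pools did not overlap for 14 members that were higher and 12 that were lower with estradiol, together 40% against 29.7% of all probe sets. Of these 26, 9 had further tested probe sets. They lay on the same side without overlap in 5 genes, Stx1a, Vamp2, Syngr1, Syt4 and Stx5, and had at least 1 opposite sign in Rab11a, Rab11b and Rab5a. Over all members, 22 genes had other tested probe sets, which all shared the sign of the chosen one in 12 and included an opposite sign in 10.

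The vesicle genes differed between pools of one treatment as well, above all between the placebo pools. Placebo 1 was the lowest of the 4 pools for 27 of the 65 members, or 41.5%, against 29.8% of all probe sets, and placebo 2 was the lowest for 10, or 15.4%, against 22.8%. Estradiol 1 was the lowest for 12 and estradiol 2 for 16, against 22.2% and 25.2% of all probe sets. Placebo 2 was the highest for 27 members, or 41.5%, against 25.8%, and placebo 1 for 9, or 13.8%, against 23.0%. Estradiol 1 was the highest for 14 and estradiol 2 for 15, against 23.1% and 28.0%. Among vesicle membrane and surface proteins placebo 2 was the highest for 7 of 8. The 10 neuron markers were likewise all brighter in placebo 2 than in placebo 1.

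Pool 1 was below pool 2 with placebo for 47 of the 65 members, against 54.6% of all probe sets, and with estradiol for 32, against 51.3%. The median difference, pool 1 minus pool 2 on the log2 scale, was -0.19 with placebo and 0.016 with estradiol, against -0.043 and -0.012 over all probe sets. For the vesicle proteins it was -0.51 with placebo. Taken without sign, the members' median difference between pools was 0.30 with placebo and 0.19 with estradiol. Over all probe sets it was 0.27 and 0.26. The members' median log2 fold change followed the placebo pool used. Without placebo 1 it was -0.14 with 21 of 65 above 0, and without placebo 2 it was 0.13 with 41 above 0.

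Single members were far apart between pools. Syt11, a synaptotagmin that does not bind calcium, read 46.7 and 181 against 21.0 and 264, low in pool 1 of each treatment and at background in placebo 1. Vamp1 differed by -1.26 on the log2 scale between the placebo pools, and its other probe set, at 223 and 192 against 56.9 and 290.5, by -2.07. Rab3a differed by -0.98 between the placebo pools and by -0.36 between the estradiol pools. In all, 24 members were lower in pool 1 of both treatments, or 36.9% against 30.3% of all probe sets, and 10 were higher in both, or 15.4% against 24.3%. Across the 65 members the pool differences of estradiol and placebo had a Pearson r of 0.39, which was 0.17 without Syt11, and across all probe sets it was 0.04. Genes of one array share its hybridisation, so these values describe the 4 arrays.

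**Figure D3:**
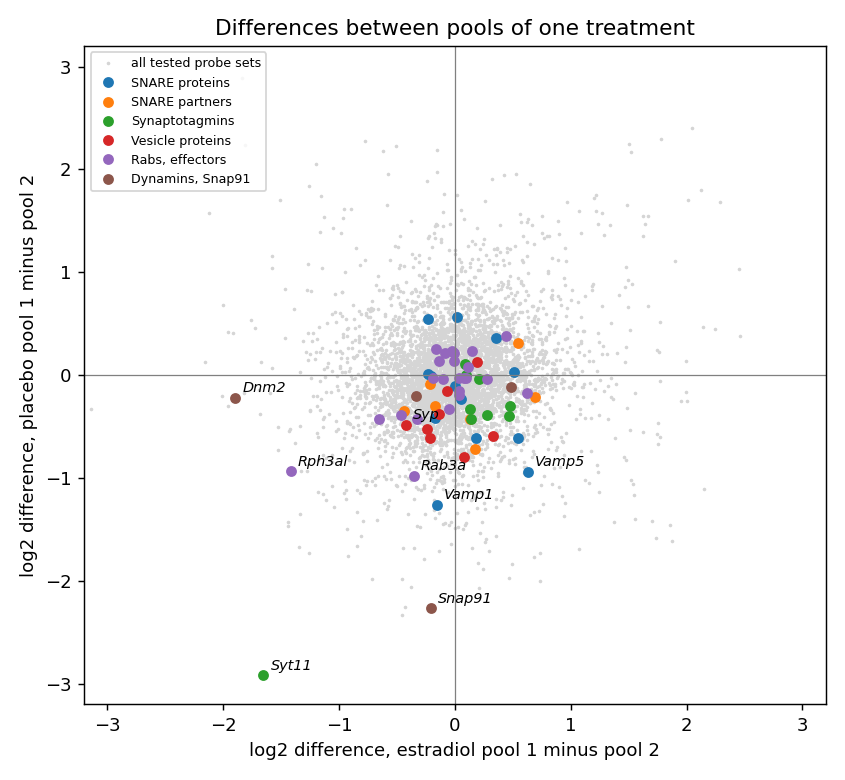
Log2 difference between the pools of one treatment, pool 1 minus pool 2, with estradiol (x axis) and placebo (y axis), for the tested members by role (coloured) and all tested probe sets (grey, 3 of which lie outside the axes). Of the 65 members 47 lie below 0 on the y axis, and those farthest down are Syt11 and Snap91, whose placebo 1 values were at background.

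**Figure D4:**
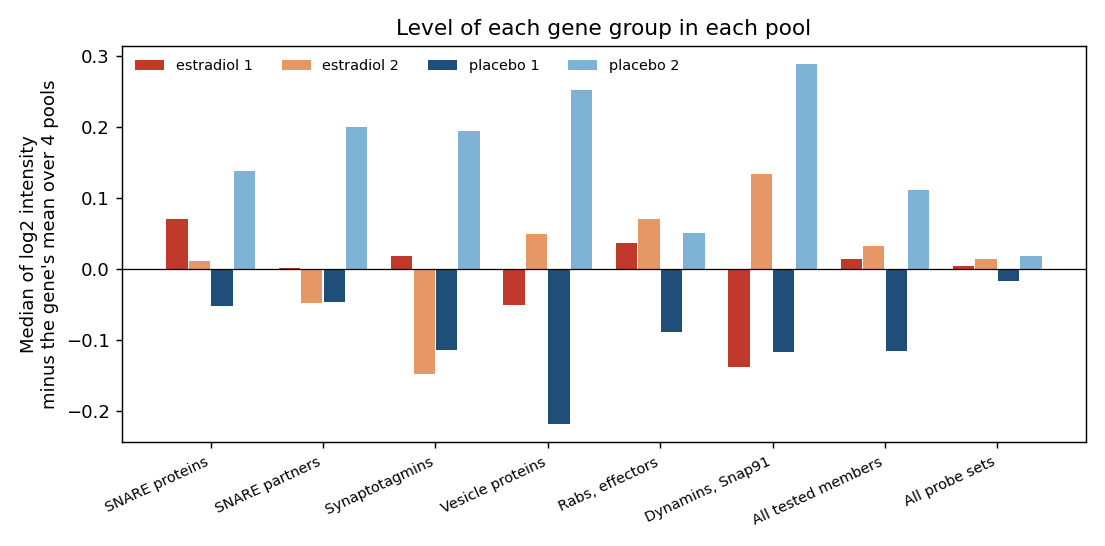
Median over the tested genes of each role, over all tested members and over all tested probe sets, of the log2 intensity in a pool minus the gene's mean over the 4 pools (bars, 1 per pool). Placebo 2 stands highest in 5 of the 6 roles, all but the Rab group, and for vesicle proteins the medians are 0.25 in placebo 2 and -0.22 in placebo 1.

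Other genes of vesicle release and recycling, which the symbol families do not cover, were taken from a list of 88. Of these 59 were measured and 43 tested, with 21 above 0 and 22 below and a median of -0.0044. In limma 0 of the 43 passed the adjusted threshold and 0 had an unadjusted p below 0.05. Pools did not overlap for 7 that were higher and 3 that were lower with estradiol, together 23.3% against 29.7% of all probe sets. Of 17 genes of endocytosis, such as clathrin chains, adaptors and amphiphysins, 5 lay above 0 and 12 below, with values from -0.29 to 0.33. Of 11 vesicle and release proteins 7 lay above 0, of 6 active zone and adhesion genes 4, and of 7 exocyst and other SNARE genes 3. Both tested vesicle transporters lay above 0 and are named after their values were seen. Slc32a1, which loads GABA into vesicles, read 638 and 1006 against 409 and 716, with a log2 fold change of 0.55 ± 0.32 (SE) and overlapping pools. Slc18a3, which loads acetylcholine, read 150.5 and 227 against 145 and 107, with 0.52 ± 0.27 (SE) and no overlap. Of 6 tested striatum markers 4 were also entirely higher with estradiol, as were 15.4% of all probe sets. Among these, Rgs9 was above background in a single estradiol pool. Pdyn and Adora2a overlapped, with log2 fold changes below 0. The part of the striatum markers in the values of Slc32a1 and Slc18a3 was not tested.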

How the data were processed

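RNA was hybridised to the Affymetrix rat genome U34 array, set A, as the series design text says. The authors deposited intensity values on a linear scale, 1 per probe set and array. Trimmed means of 150.2 on every array show scaling before deposit. The labels and design text used here do not name the program that made the values.

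Of 8799 rows, 59 controls were left out. The platform annotation gave 1 symbol for 7006 probe sets, several for 308 and none for 1426, and only the first kind was named. All 84 member identifiers were found in RefSeq (GRCr8), with 0 symbols changed. Array medians were 55.0 to 57.8, and 58.9 to 64.6% of probe sets exceeded the brightest of 23 foreign control probe sets (30.1 to 37.8). A lower bound of a fold sets the brighter group's mean log2 intensity against the dimmer group's, each array raised to its background.

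Log2(value + 16) was fitted with limma 3.58.1 in R 4.3.3 (lmFit, eBayes with intensity trend, two-sided, Benjamini-Hochberg, threshold 0.05) on 5244 probe sets with means of at least 37.5, the 40th percentile. This scale understates changes of dim probe sets. The fit had 2 residual and 5.63 prior degrees of freedom and was tested on simulated data. Precision is limited by the number of arrays. Tables and plots used Python 3.11.15 with pandas 2.3.3 and matplotlib 3.10.9. Members and lists were chosen with earlier results of these data known. The naming rule took a core list of 23 genes, genes with an unadjusted p below 0.05, genes whose pools did not overlap, and the highest and lowest value of each role; others are named only to account for every role. Where a gene has several promoter entries, the first was read. Alternatives were offsets of 1 and 64, no filter or the 60th percentile, median centring, quantile normalisation, the mean of a gene's probe sets, no trend, the replicate number as a block, and each pool left out.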

Additional observations from a re-analysis of the deposited data

How the results depend on the processing

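Under each of 12 alternatives 0 probe sets passed the adjusted threshold in limma, with 89 to 337 at an unadjusted p below 0.05. The members' median log2 fold change lay between -0.14 (without placebo 1) and 0.13 (without placebo 2) with 1 pool left out. The number of members above 0 was 23 with the filter at the 60th percentile, where fewer genes were tested, and 21 to 41 with 1 pool left out. The number of members with an unadjusted p below 0.05 in limma was 0 at the 60th percentile, against 89 of all 3496 probe sets there. Without a filter it was 3 of the 84 members, against 337 of all 8740 probe sets. Of these 3, Rab3d was higher with estradiol and Syt8 was lower. Dnm3 read 7.5 and 10.2 in the estradiol pools against 24.6 and 17.7 in the placebo pools. It was at background in every pool, so no difference was measured there. Snap91 had opposite signs with 1 placebo pool left out, -1.17 without placebo 1 and 1.09 without placebo 2. With the replicate number as a block (replicate block) there were 0 calls and 1 member, Rab3d, at an unadjusted p below 0.05. The labels do not pair the pools by number, and the deviations of same-numbered pools had a correlation of 0.04 over all probe sets.

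Of the 47 tested members that the naming rule took, 28 kept their sign under every alternative that gave a value. This count was partly fixed by the choice of genes. The rule took every gene whose pools did not overlap, and such a gene cannot change sign when 1 pool is left out. The 18 that did change sign with 1 pool left out all had overlapping pools. With 1 pool left out, the log2 fold change ran from -0.56 to 0.13 for Cplx2, -0.14 to 0.20 for Dnm1, -0.12 to 0.36 for Dnm1l, -1.71 to 0.18 for Dnm2, -0.18 to 0.25 for Napa, -0.54 to 0.19 for Nsf, -0.60 to 0.38 for Rab3a, -1.32 to 0.10 for Rph3al, -0.26 to 0.35 for Snap25, -1.17 to 1.09 for Snap91, -0.22 to 0.39 for Sv2a, -0.45 to 0.14 for Sv2b, -0.17 to 0.63 for Sv2c, -0.45 to 0.076 for Syn1, -0.13 to 0.25 for Syn2, -0.24 to 0.24 for Syp, -0.20 to 0.10 for Unc13a, -0.59 to 0.67 for Vamp1. Median centring turned Dnm1 to -9.8e-04 and Napa to -0.0020, quantile normalisation Syp to 0.052, the mean of a gene's probe sets Rab11b to -0.052 and Syn2 to -0.091, and an offset of 1 Snap91 to 0.10. The cause of these changes was not tested. Of the 84 members, 10 were at background in every pool, which leaves no measured difference there.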
